A study of Mus musculus with 4 samples.

Results

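Type I interferon-stimulated genes were compared between LSK cells of SRC-3 knockout (KO) and wild-type (WT) mice. LSK cells are the bone marrow fraction without lineage markers and with Sca-1 and c-Kit on the surface, which holds the hematopoietic stem cells and early progenitors. The gene set was a list of 40 symbols. A gene was measured where a probe set was assigned to it alone, and the probe set with the highest mean over the arrays was taken where there were several. That gave 35 genes of the 22180 measured in all. Oas1a, Ifi27l2a, Parp10 and Dtx3l were read only by probe sets shared with a second gene, so they were left out of the tests and are given below as values. Ifi44 was not analysed here. The rule used names and levels, not the difference between genotypes, but the list was drawn up with earlier results of these data known.

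The series holds 4 Affymetrix arrays, 1 per sample, from 2 KO and 2 WT samples. All donors were male mice aged 8 weeks, and sorted marrow cells of both genotypes gave the RNA. SRC-3 is the product of Ncoa3 and helps nuclear receptors and further DNA-binding factors to activate transcription. The labels used here name neither the knockout allele and strain nor the number of mice per sample, nor whether the deletion was limited to blood cells. They call the samples of a genotype biological replicates. Where such samples shared mice, the tests here would cover technical spread alone.

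Type I interferons bind the receptor pair Ifnar1 and Ifnar2, and the kinases Jak1 and Tyk2 then pass the signal on by phosphorylation. A complex that holds Stat2 and Irf9 binds the interferon-stimulated response element in the promoters of target genes. The products degrade or mark viral RNA, limit viral assembly or feed back on the pathway. In marrow, type I interferon is known to push quiescent stem cells into division, and Sca-1, one of the antigens of the LSK gate, is itself interferon-inducible. Ly6a, which encodes Sca-1, was not analysed here.

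The response element is shown here for 5 genes, chosen because the same motif stood upstream of genes with large differences between the genotypes (Isg15, Ifit1 and Bst2) and of genes with small ones (Rsad2 and Trim30a). Each line gives the 150 bases before the transcription start on the gene's own strand, from RefSeq on GRCm38.p6, and capitals mark matches to the element's core, GAAA repeated after any 2 bases, on either strand.
Isg15 (chr4:156200819-156200968, minus strand): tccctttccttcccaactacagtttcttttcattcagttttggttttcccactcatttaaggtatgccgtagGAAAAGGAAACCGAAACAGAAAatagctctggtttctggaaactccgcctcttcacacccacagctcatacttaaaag
Ifit1 (chr19:34640739-34640888, plus strand): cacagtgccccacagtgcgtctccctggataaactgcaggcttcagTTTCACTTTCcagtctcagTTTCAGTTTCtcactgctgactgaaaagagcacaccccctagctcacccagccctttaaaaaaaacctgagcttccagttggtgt
Bst2 (chr8:71537473-71537622, minus strand): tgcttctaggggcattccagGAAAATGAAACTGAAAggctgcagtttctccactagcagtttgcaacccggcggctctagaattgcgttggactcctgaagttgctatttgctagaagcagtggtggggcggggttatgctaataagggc
Rsad2 (chr12:26456453-26456602, minus strand): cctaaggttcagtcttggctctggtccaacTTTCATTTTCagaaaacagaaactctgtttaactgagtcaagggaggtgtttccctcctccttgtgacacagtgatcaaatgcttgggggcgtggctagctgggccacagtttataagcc
Trim30a (chr7:104465194-104465343, minus strand): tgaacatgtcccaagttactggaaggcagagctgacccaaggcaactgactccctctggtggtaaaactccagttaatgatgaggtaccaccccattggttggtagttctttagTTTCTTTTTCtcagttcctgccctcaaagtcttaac
Isg15 had 3 overlapping matches, Ifit1 2 matches set apart and Bst2 2 overlapping ones. Rsad2 and Trim30a had 1 each. The 5 genes were picked with their differences known, so these numbers cannot show a link between matches and difference. In the longer windows described next, Ifit3 (difference -0.24) had 2 matches. Isg20 (1.41), Ube2l6 (1.40) and Oasl2 (1.07) had 0.

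Promoters of 31 of the 40 listed genes were held in the RefSeq table, as windows of 250 bases before to 50 after each start. Usp18 was not among them. The repeated GAAA occurred in 11 of these 31 (35.5%), against 1079 of 27025 genes with a window (3.99%). TTCNNNGAA, the core of the element bound by Stat dimers, occurred in 8 of the 31 (25.8%), against 2582 of 27025 (9.55%). Matches on both strands were counted, matches of the 2 motifs may overlap, and a match is not evidence of binding. Among measured genes, the 10 with the repeated GAAA had differences between KO and WT from -0.28 to 1.80 with a median of 0.59 (log2), and the 18 without it from -0.14 to 1.41 with a median of 0.30. The 2 ranges overlapped over most of their length, and their difference was not tested.

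As a check of the labels, Ncoa3 stood at 5.35 and 5.09 in the KO samples, against 7.76 and 7.05 in the WT samples (log2), a fall of 4.55-fold (limma adjusted p = 0.038). Across all genes the arrays correlated at r = 0.992 within KO, 0.986 within WT and 0.977 to 0.982 between the genotypes. The stem and progenitor genes Kit, at 9.43 and 9.34 in KO and 10.33 and 9.65 in WT, and Cd34, at 10.15 and 10.08 in KO and 10.86 and 10.73 in WT, were expressed on all 4 arrays. All 7 measured stem and progenitor markers lay above the median gene (4.32) on all 4 arrays. Of the lineage lists, 6 of 8 T and NK cell genes and 3 of 5 B cell genes lay below it on all 4, among them Cd3e and Ms4a1, while Nkg7, at 10.27 and 10.36 in KO and 9.64 and 10.11 in WT, and Cd79b, at 7.45 and 7.48 in KO and 7.28 and 7.11 in WT, lay well above. Of 8 neutrophil genes 5 lay above it on all 4 and 2 below, Ngp at 7.17 and 7.23 in KO and 6.05 and 6.05 in WT and Ly6g at 2.87 and 2.75 in KO and 2.83 and 2.91 in WT being examples. All 5 monocyte genes and all 5 genes of granulocyte and monocyte progenitors lay above the median gene on all 4 arrays. So did 8 of 13 macrophage and dendritic cell genes and 4 of 8 plasmacytoid dendritic cell genes. Of all 22180 genes, 11090 had a mean at or above that level. The red cell membrane gene Rhag was at 7.31 and 7.30 in KO and 3.34 and 3.94 in WT.

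In KO cells Isg15, Usp18 and Bst2 rose past the threshold, and Ifit1, Isg20, Ube2l6, Rtp4 and Oasl2 were 2.1-fold to 3.1-fold higher without passing it. Ifit3, Rsad2, Oas2, Adar, Trim25, Samd9l, Trim30a and Sp100 had means in KO that were lower by 0.28 or less on the log2 scale, except that Trim30a and Sp100 turned to the other sign with median centring. At a limma adjusted p under 0.05 over all 22180 genes, 3 of 35 genes were higher (8.57%), against a background of 0.397% of all genes, and 0 were lower, against 0.113%. At an unadjusted p under 0.05 there were 18 higher (51.4%), against 10.5% of all genes, and 0 lower, against 6.93%. A looser call asked for a change of 1.5-fold or more with p under 0.01 before adjustment. By it 14 were higher (40%), against 4.08%, and 0 lower, against 2.24%. Both KO samples lay above both WT samples for 21 genes (60%), against 25.1% of all genes, and both lay below for 2 genes, against 22.9%. Of the 35 genes, 34 had a mean at or above the median gene. Of the 11090 genes at that level, limma called 82 higher and 22 lower after adjustment. At an unadjusted p under 0.05, 1936 of these were higher and 1059 lower, and by the looser call 797 and 391. Both KO samples lay above both WT samples for 3819 of them, and below for 2739. The median difference of the 35 genes was 0.53 on the log2 scale, or 1.45-fold, and that of all genes was -0.0010. With 1 array left out, its genotype has 1 sample, and the spread comes from the pair of the other genotype alone. The adjusted counts then followed which pair that was. They were 0 without KO replicate 1 or KO replicate 2, as over all genes, 16 without WT replicate 1 and 13 without WT replicate 2, against backgrounds of 6.50% and 7.80% of all genes higher. With p under 0.05 before adjustment, limma had 11 of the 35 higher and 0 lower whichever KO array was left out, while over all genes 837 were higher and 634 lower without KO replicate 1, and 974 higher and 936 lower without KO replicate 2. The differences of the 3 called genes ran from 1.61 to 2.003 for Isg15, 1.55 to 1.65 for Usp18 and 0.99 to 1.09 for Bst2. Other genes moved more, such as Ube2l6 from 1.06 to 1.73, Oasl1 from 0.40 to 1.15 and Adar from -0.54 to 0.26. The genes that changed sign are named in the section on processing.

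**Figure D1:**
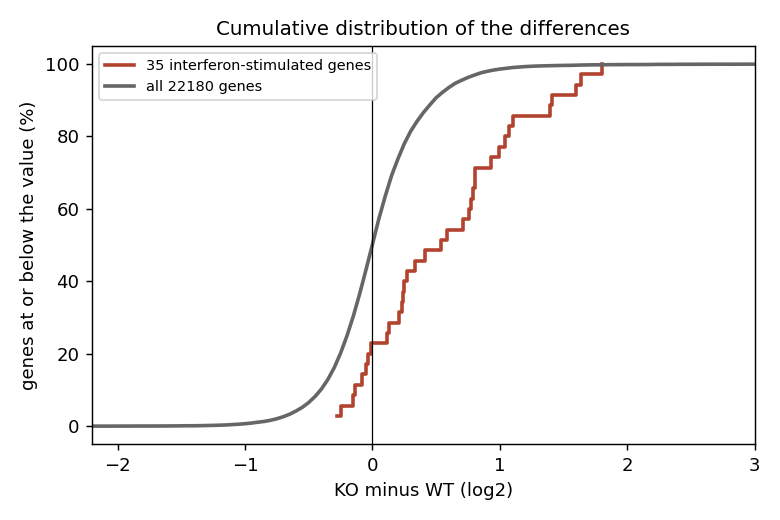
Share of genes (vertical axis, %) whose KO minus WT difference (horizontal axis, log2) lies at or below each value, for the 35 interferon-stimulated genes and for all 22180 genes; a few genes lie beyond the axis. The line of the interferon-stimulated genes starts at -0.28, lies to the right of the line of all genes and runs to 1.80, with its median at 0.53.

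Sizes ran in steps without a clear gap. The difference was over 1 on the log2 scale for 8 genes (22.9%, against 1.38% of all genes), between 0.5 and 1 for 10, between 0 and 0.5 for 9 and below 0 for 8. Over 1 stood Isg15, Ifit1, Usp18, Isg20, Ube2l6, Rtp4, Oasl2 and Bst2, and the 95% interval of each lay wholly above a 1.5-fold rise (0.58). At the other end, the intervals of Trim30a, Sp100, Samd9l, Trim25, Adar, Oas2, Ifit3 and Rsad2 lay wholly below that size. For 17 of the 35 genes the interval held 0.

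**Figure D2:**
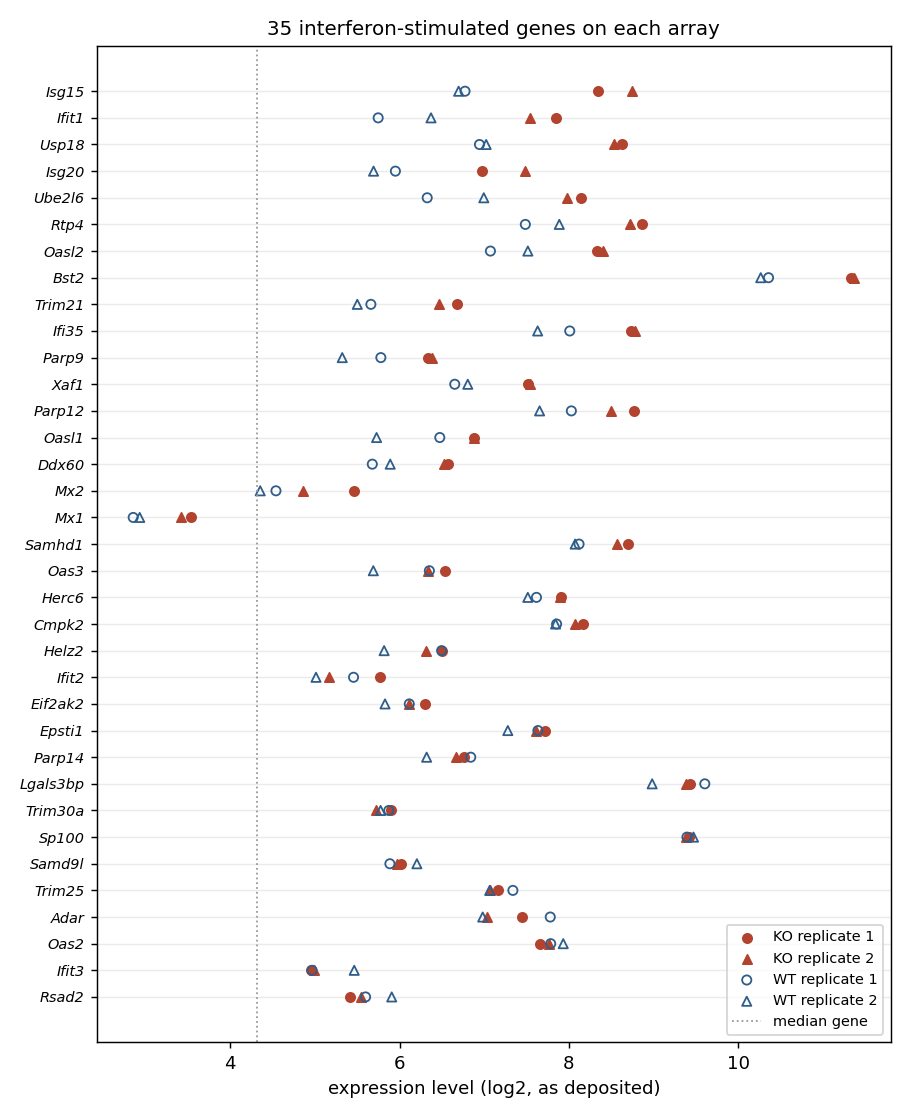
Level of the 35 genes (log2, as deposited) on each of the 4 arrays, ordered from the largest KO minus WT difference at the top to the lowest at the bottom; filled red symbols are KO, open blue symbols are WT, and the dotted line is the median gene at 4.32. In the upper part both KO symbols lie right of both WT symbols, and from Oas3 downwards the genotypes overlap for most genes.

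Genes of the Isg15 conjugation pathway held 2 of the 3 calls. Isg15 encodes a ubiquitin-like protein that is joined to other proteins, and its levels were 8.34 and 8.74 in the KO samples, against 6.77 and 6.70 in the WT samples. Both KO samples were over 1.5 log2 units above both WT samples. Isg15 rose 3.49-fold, a difference of 1.80 ± 0.19 (SE) with an adjusted p of 0.027. Usp18, the protease that takes Isg15 off its targets and also blocks the interferon receptor, stood at 8.63 and 8.53 in the KO samples, against 6.94 and 7.02 in the WT samples. The samples of each genotype lay within 0.1 of each other and the genotypes did not overlap. Usp18 rose 3.03-fold (1.60 ± 0.16 SE, adjusted p = 0.023).

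Ube2l6, the conjugating enzyme that carries Isg15, was at 8.14 and 7.97 in the KO samples, against 6.33 and 6.99 in the WT samples. The genotypes did not overlap, but the WT samples differed by 0.67 and the difference of 1.40 ± 0.25 (SE) did not pass (adjusted p = 0.079). Herc6, the main Isg15 ligase in mice, was at 7.91 and 7.90 in the KO samples, against 7.62 and 7.51 in the WT samples, a difference of 0.34 ± 0.16 (SE) with both KO samples above both WT samples. Trim25, a ligase that acts on the RNA sensor RIG-I, was at 7.16 and 7.07 in the KO samples, against 7.34 and 7.06 in the WT samples. Its samples overlapped, and its interval ran from -0.52 to 0.35.

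Of the IFIT genes, whose products bind viral RNA, Ifit1 stood apart from its neighbours. Ifit1 was at 7.85 and 7.54 in the KO samples, against 5.75 and 6.37 in the WT samples, and no WT sample reached a KO sample. The difference was 1.63 ± 0.25 (SE), or 3.1-fold, with an adjusted p of 0.062. Ifit2 was at 5.77 and 5.17 in the KO samples, against 5.46 and 5.01 in the WT samples, with the genotypes overlapping (difference 0.24 ± 0.27 SE). Ifit3 was at 4.95 and 4.996 in the KO samples, against 4.97 and 5.47 in the WT samples. There WT replicate 2 was the high sample, the other 3 lay within 0.05 of each other, and the interval of the difference ran from -0.77 to 0.28. The 3 genes lie together on chromosome 19 (GRCm38.p6). Ifit1 and Ifit3 have close relatives there, and the probe sets may read those copies too. Whether the 3 differences differ from each other was not tested, but the interval of Ifit1, 1.02 to 2.25, did not overlap those of Ifit2 (-0.41 to 0.88) and Ifit3.

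**Figure D3:**
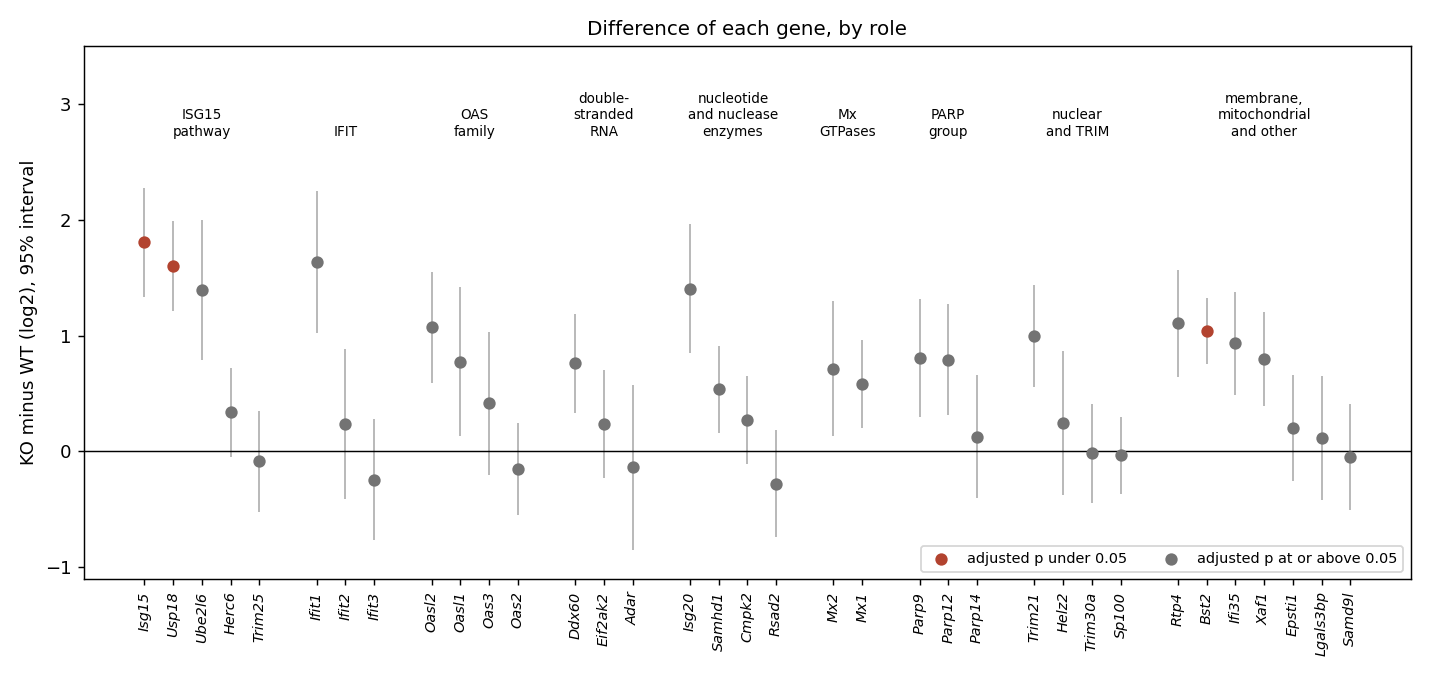
KO minus WT difference of each of the 35 genes (log2) with its 95% interval from limma, grouped by role; red marks an adjusted p under 0.05. Most role groups hold genes well above 0 beside genes at or near 0, as with Ifit1 at 1.63 and Ifit3 at -0.24.

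In the oligoadenylate synthetase family, the active enzymes make the signal that switches on RNase L. The like-genes Oasl1 and Oasl2 had both KO samples above both WT samples, and Oas2 and Oas3 did not. None passed the threshold. Oasl2 was at 8.33 and 8.40 in the KO samples, against 7.07 and 7.52 in the WT samples, with no overlap and a difference of 1.07 ± 0.20 (SE, adjusted p = 0.084). Oasl1, which in mice holds back translation of Irf7, was at 6.88 and 6.88 in the KO samples, against 6.48 and 5.73 in the WT samples. The KO samples were equal to within 0.01, and the WT samples were 0.75 apart, which left the difference at 0.78 ± 0.27 (SE, adjusted p = 0.21). Oas3 overlapped between the genotypes, at 6.54 and 6.34 in the KO samples, against 6.35 and 5.69 in the WT samples. Oas2 was at 7.66 and 7.76 in the KO samples, against 7.78 and 7.93 in the WT samples, with both KO samples below both WT samples by a small margin (difference -0.15 ± 0.17 SE, adjusted p = 0.71). A probe set shared by Oas1a and Oas1g was at 6.72 and 6.52 in the KO samples, against 5.75 and 5.85 in the WT samples. These did not overlap, but the signal cannot be assigned to either gene.

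None of the 3 other genes for proteins that act on double-stranded RNA passed. Ddx60, a helicase, was at 6.57 and 6.52 in the KO samples, against 5.68 and 5.89 in the WT samples, a difference of 0.76 ± 0.18 (SE) with no overlap (adjusted p = 0.12). Eif2ak2, the kinase PKR that stops translation, was at 6.30 and 6.12 in the KO samples, against 6.12 and 5.83 in the WT samples. All 4 samples lay within 0.5, and WT replicate 1 reached KO replicate 2 to within 0.01 (difference 0.24 ± 0.19 SE). Adar, which edits adenosine in double-stranded RNA, was at 7.45 and 7.04 in the KO samples, against 7.78 and 6.98 in the WT samples. Here the WT samples enclosed the KO samples, and the difference was -0.14 ± 0.30 (SE).

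Of 4 enzymes that act on nucleotides and nucleic acids none passed, and Rsad2 and Isg20 lay at opposite ends. Isg20, an exonuclease, was at 6.97 and 7.48 in the KO samples, against 5.95 and 5.69 in the WT samples, or 2.65-fold higher in KO without passing (adjusted p = 0.066). The KO samples were 0.51 apart and both above the WT samples. Samhd1, which breaks down deoxynucleotides, was at 8.70 and 8.57 in the KO samples, against 8.12 and 8.07 in the WT samples, a difference of 0.53 ± 0.16 (SE) without overlap. Cmpk2, a mitochondrial nucleotide kinase, was at 8.17 and 8.07 in the KO samples, against 7.85 and 7.84 in the WT samples. The samples were tight and did not overlap, yet the difference was small, at 0.27 ± 0.16 (SE). Rsad2 lies beside Cmpk2 on chromosome 12 (GRCm38.p6) and encodes viperin, which makes a chain-ending nucleotide. It was at 5.41 and 5.54 in the KO samples, against 5.60 and 5.91 in the WT samples, with both KO samples below both WT samples, and had the lowest difference of the 35 genes, at -0.28 ± 0.19 (SE, adjusted p = 0.53).

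The Mx genes encode dynamin-like GTPases that trap viral particles, and inactive alleles of them are common in laboratory mice. Mx2 was at 5.47 and 4.86 in the KO samples, against 4.54 and 4.36 in the WT samples. Mx1 was at 3.54 and 3.42 in the KO samples, against 2.86 and 2.93 in the WT samples, the 1 gene of the 35 whose mean lay below the median gene. Neither overlapped between the genotypes, and the differences were 0.71 ± 0.24 (SE) for Mx2 and 0.58 ± 0.16 (SE) for Mx1, with adjusted p-values of 0.21 and 0.15.

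In the ADP-ribosyltransferase group none of the 3 measured genes passed, and Parp14 alone overlapped between the genotypes. Parp9, which works with the ubiquitin ligase Dtx3l, was at 6.34 and 6.38 in the KO samples, against 5.78 and 5.32 in the WT samples, a difference of 0.81 ± 0.21 (SE, adjusted p = 0.14). Parp12 was at 8.77 and 8.50 in the KO samples, against 8.03 and 7.65 in the WT samples, a difference of 0.79 ± 0.20 (SE, adjusted p = 0.13). For both genes the KO samples lay above the WT samples. Parp14 was at 6.76 and 6.66 in the KO samples, against 6.84 and 6.32 in the WT samples, with WT replicate 1 the highest of the 4. The probe set shared by Dtx3l and Parp9 gave 8.06 and 7.91 in the KO samples, against 8.09 and 7.60 in the WT samples, which overlapped, unlike the probe set of Parp9 alone. The probe set shared by Parp10 and the cytoskeletal gene Plec gave 6.34 and 6.39 in the KO samples, against 6.04 and 5.37 in the WT samples, without overlap.

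Of the 4 genes for nuclear and TRIM proteins none passed and 3 overlapped. Trim21, a cytosolic antibody receptor and ubiquitin ligase, was the 1 that did not, at 6.68 and 6.47 in the KO samples, against 5.66 and 5.50 in the WT samples, a difference of 0.996 ± 0.18 (SE) with no overlap (adjusted p = 0.083). Trim30a, a mouse gene that restrains inflammatory signalling, was at 5.90 and 5.73 in the KO samples, against 5.87 and 5.78 in the WT samples. Sp100, a nuclear body protein, was at 9.42 and 9.38 in the KO samples, against 9.39 and 9.47 in the WT samples. In both genes the genotypes overlapped, and the intervals ran from -0.44 to 0.41 for Trim30a and -0.36 to 0.30 for Sp100. Sp100 has repeated relatives in the mouse genome, and its 3 other single-gene probe sets had differences of -0.42, 0.034 and 0.062. Helz2, a helicase and transcriptional coactivator, was at 6.50 and 6.31 in the KO samples, against 6.50 and 5.82 in the WT samples, where WT replicate 1 equalled the higher KO sample.

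At the membrane, Bst2 rose. It encodes tetherin, which holds budding virus on the cell surface, and it was the brightest of the 35 genes at 11.33 and 11.37 in the KO samples, against 10.36 and 10.26 in the WT samples. Samples of one genotype lay within 0.1 of each other and the genotypes did not overlap. The rise was 2.06-fold (1.04 ± 0.12 SE, adjusted p = 0.03). Without the intensity trend of limma the adjusted p was 0.058, which does not pass. Rtp4, a chaperone of membrane receptors, was at 8.86 and 8.72 in the KO samples, against 7.49 and 7.89 in the WT samples, a difference of 1.11 ± 0.19 (SE) that did not pass (adjusted p = 0.076) although the genotypes did not overlap.

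Ifi35 and Xaf1 lay in the same range. Ifi35, a cytosolic partner of Nmi, was at 8.73 and 8.78 in the KO samples, against 8.01 and 7.63 in the WT samples, a difference of 0.93 ± 0.18 (SE) with an adjusted p of 0.09. Its second, dimmer probe set showed no such step, at 4.48 and 4.15 in KO and 4.35 and 4.46 in WT. Xaf1, which promotes apoptosis, was at 7.52 and 7.54 in the KO samples, against 6.65 and 6.81 in the WT samples, and its KO samples were 0.02 apart (difference 0.80 ± 0.17 SE, adjusted p = 0.10). Neither gene overlapped between the genotypes. The probe set shared by Ifi27l2a and Ifi27l2b, small proteins induced by interferon, was at 6.16 and 6.001 in the KO samples, against 4.76 and 5.42 in the WT samples, also without overlap.

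The other genes of this group overlapped between the genotypes. Lgals3bp, a secreted glycoprotein, was at 9.43 and 9.38 in the KO samples, against 9.60 and 8.98 in the WT samples, with WT replicate 1 above and WT replicate 2 below both KO samples. Samd9l, a restraint on growth of blood progenitors, was at 6.02 and 5.97 in the KO samples, against 5.89 and 6.20 in the WT samples, and Epsti1 was at 7.72 and 7.61 in the KO samples, against 7.63 and 7.28 in the WT samples. Their differences were 0.12 for Lgals3bp, -0.05 for Samd9l and 0.21 for Epsti1, and that of Lgals3bp turned to -0.068 after quantile normalization. Lgals3bp had a second, dimmer probe set at 5.75 and 5.86 in KO and 5.42 and 5.51 in WT, with no overlap.

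KO samples resembled each other more than WT samples did. The median absolute difference between replicates over the 35 genes was 0.11 in KO and 0.31 in WT, and over all genes it was 0.15 in KO and 0.23 in WT. The WT samples were further apart than the KO samples for 25 of the 35 genes, against 60.2% of all genes. Ifit1, Ube2l6, Oasl1, Oas3, Helz2, Parp14, Lgals3bp and Adar had WT samples more than 0.5 apart. WT replicate 1 was the higher WT sample for 22 of the 35 genes, against 10335 of all 22180 genes and 6562 of 11090 at or above the median level. For Ifit1, Ube2l6 and Oasl2 WT replicate 1 was the lower one, so no single WT sample was high across the set.

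The 6 further lists of the pathway were set beside the 35 genes, and their calls lay among transcription factors, sensors, inducible GTPases and ligands. Among 8 measured transcription factors 1 rose and 0 fell past the threshold. Irf7, the factor that amplifies interferon production, was at 8.51 and 8.33 in the KO samples, against 7.19 and 7.04 in the WT samples, and rose 2.48-fold (adjusted p = 0.044). Stat2 was at 7.42 and 7.36 in the KO samples, against 6.93 and 6.58 in the WT samples, a difference of 0.63 ± 0.19 (SE, adjusted p = 0.17), and its partner Irf9 overlapped, with a difference of 0.078 ± 0.19 (SE). Stat3 differed by -0.46 ± 0.19 (SE) and Irf8 by 0.47 ± 0.18 (SE), and neither passed.

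Limma called 0 of 9 receptor and kinase genes, and 1 was higher and 1 lower with p under 0.05 before adjustment. Counts of 1 in 9 lie near the shares over all genes, 10.5% higher and 6.93% lower. Ifnar1, a chain of the type I receptor, was at 6.61 and 6.41 in the KO samples, against 7.36 and 6.91 in the WT samples, a difference of -0.62 ± 0.21 (SE). Ifngr1, a chain of the interferon gamma receptor, was at 8.64 and 8.62 in the KO samples, against 8.23 and 7.75 in the WT samples, a difference of 0.64 ± 0.20 (SE). Neither overlapped between the genotypes, and their adjusted p-values were 0.21 and 0.19. Of 6 inhibitors, 0 passed in limma and 1 was higher at an unadjusted p under 0.05. That was Socs1, which blocks Jak kinases, at 6.59 and 6.62 in the KO samples, against 5.81 and 5.83 in the WT samples (difference 0.79 ± 0.17 SE, adjusted p = 0.10).

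Over 19 measured ligand genes the median level was 3.26, below the median gene at 4.32, and 0 rose and 1 fell past the threshold. The one that fell was Ifna4, at 5.87 and 5.91 in the KO samples, against 7.37 and 7.69 in the WT samples (-1.64 ± 0.19 SE, adjusted p = 0.031). Ifna2 was at 3.75 and 3.21 in the KO samples, against 2.22 and 2.79 in the WT samples and Ifnb1 at 2.61 and 3.46 in the KO samples, against 2.25 and 2.39 in the WT samples. Neither overlapped, both were dim, and neither passed (adjusted p = 0.15 for Ifna2 and 0.26 for Ifnb1). Ifnl2 was lower in both KO samples, with a difference of -0.47 ± 0.18 (SE) that did not pass. Ifng overlapped between the genotypes, with a difference of -0.023 ± 0.18 (SE). Alpha interferon genes are near-identical copies of each other, so a probe set of one may read others.

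Sensors of nucleic acids and their adaptors had 1 call in 14 genes. Zbp1, a sensor of Z-form nucleic acid, was at 7.81 and 7.81 in the KO samples, against 5.42 and 5.45 in the WT samples, and rose 5.2-fold (adjusted p = 0.009). Cgas, the DNA sensor, differed by 0.88 ± 0.18 (SE), Ifih1 by 0.87 ± 0.18 (SE) and Dhx58 by 0.78 ± 0.17 (SE), and none of these passed. Ddx58, which encodes RIG-I, overlapped, with a difference of -0.087 ± 0.24 (SE).

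Inducible GTPases of the IRG and GBP families, which respond to interferon gamma as well as to type I interferon, had the highest median of the 6 lists. Of 13 measured genes 6 rose and 0 fell past the threshold, 11 were higher with p under 0.05 before adjustment, and the median was 1.196, against 0.53 for the 35 type I genes. No test was made between these 2 medians. Iigp1, which attacks the vacuoles of parasites, was at 9.66 and 9.67 in the KO samples, against 6.56 and 7.15 in the WT samples. Igtp, a regulator of such GTPases, was at 7.69 and 7.499 in the KO samples, against 5.69 and 5.10 in the WT samples. Both were well apart, with all KO samples over 1.5 log2 units above the WT samples. Iigp1 rose 7.02-fold, Igtp 4.58-fold, Gbp4 3.69-fold, Gbp10 3.55-fold, Irgm1 2.96-fold and Irgm2 2.4-fold, with adjusted p-values from 0.0094 to 0.043. Gbp8 differed by 1.196 ± 0.19 (SE) and Gbp7 by 1.17 ± 0.23 (SE) without passing. Over all 69 measured genes of these 6 lists, 8 rose and 1 fell, against 0.397% and 0.113% of all genes. With 1 array left out, limma took the spread from the pair of the other genotype alone. In these lists, as over all genes, it called more without either WT array than with all 4 arrays. It called 0 without KO replicate 1, with 14 higher and 1 lower at p under 0.05 before adjustment, and 0 without KO replicate 2, with 16 higher and 3 lower.

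**Figure D4:**
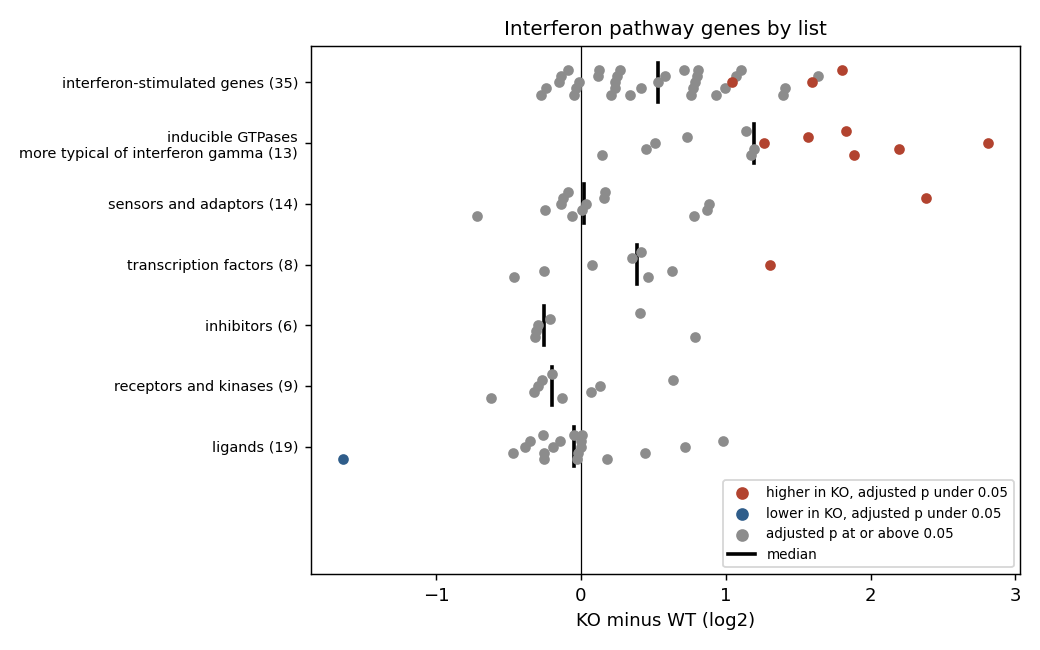
KO minus WT difference (horizontal axis, log2) of the 35 interferon-stimulated genes and of 6 other lists of the interferon pathway, with the number of measured genes in brackets; each point is a gene, the bar is the list's median, and colour marks an adjusted p under 0.05. Medians are 0.53 for the interferon-stimulated genes, 1.196 for the inducible GTPases and between -0.25 and 0.39 for the other lists.

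Markers of other cells were set beside these results, since in a bulk sample more cells of a type and more RNA per cell cannot be told apart. Of 13 macrophage and dendritic cell genes, 2 rose and 0 fell past the threshold, and the list's median difference was 0.14. Both calls were MHC class II genes, H2-Aa at 8.04 and 8.23 in KO and 6.47 and 6.34 in WT and H2-Eb1 at 8.01 and 7.99 in KO and 6.65 and 6.40 in WT. Another class II gene, H2-Ab1, was at 10.17 and 10.20 in KO and 9.05 and 9.48 in WT (adjusted p = 0.087). The summed linear level of the list was 2179 to 2235 in KO and 1277 to 1361 in WT, and that of the 10 genes other than these 3, a choice made after the values were seen, was 504 to 506 in KO and 483 to 560 in WT. Among those 10, Cd68 was at 7.36 and 7.47 in KO and 7.89 and 7.46 in WT and Csf1r at 6.96 and 6.76 in KO and 6.98 and 6.39 in WT, and Adgre1 was at 4.29 and 4.30 in KO and 4.14 and 4.14 in WT. Bst2 is also a surface marker of plasmacytoid dendritic cells. Limma called 0 of 8 other markers of these cells, and before adjustment 0 were higher and 1 lower with p under 0.05. The list's median difference was 0.016 and its summed level 454 to 459 in KO and 563 to 682 in WT. The 1 lower gene was Tcf4, a transcription factor also used by other cells, at 7.58 and 7.45 in KO and 8.68 and 8.25 in WT. The 7 others summed to 268 to 280 in KO and 259 to 271 in WT, and leaving out Tcf4 was also chosen after the values were seen. In both lists the genes left out were those that differed most, which brings the sums closer by construction. Siglech, which defines these cells, was at 4.32 and 4.26 in KO and 4.25 and 4.18 in WT.

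Summed levels did not overlap between the genotypes for any of the marker lists. Nor did the sum over all 22180 genes, at 2389726 to 2418906 in KO and 2197367 to 2297529 in WT. The sums of the lists were lower in KO for plasmacytoid dendritic cells and for LSK and stem cells, and higher in KO for the rest, as over all genes. Of 4 measured erythroblast genes 3 rose and 0 fell. They were Ermap, a red cell adhesion molecule, 15.6-fold, Rhag 12.7-fold and Klf1, the master transcription factor of red cells, 5.46-fold. Their list's summed linear level was 537 to 569 in KO and 62.9 to 88.9 in WT. Neutrophil genes had a summed level of 544 to 562 in KO and 205 to 287 in WT over 8 genes, with 0 past the threshold in limma and 5 higher at an unadjusted p under 0.05. Camp, an antimicrobial granule protein, was at 6.89 and 7.03 in KO and 4.81 and 5.51 in WT. Of 5 monocyte genes 0 passed in limma and 1 was higher with p under 0.05 before adjustment, Ly6c2 at 12.15 and 12.27 in KO and 11.37 and 11.62 in WT, and the sum was 6492 to 6882 in KO and 3942 to 4890 in WT. Ly6c2 made up most of that sum. The mean was higher in KO for 4 of the 5 genes. Cx3cr1 was the 1 lower gene, at 5.48 and 5.65 in KO and 5.74 and 5.98 in WT. The 8 T and NK cell genes summed to 1309 to 1383 in KO and 872 to 1191 in WT, of which Nkg7 made up most. The 5 B cell genes summed to 226 to 227 in KO and 210 to 222 in WT, of which Cd79b made up most. Of these 5 genes, 3 had a lower mean in KO. In limma 2 were lower and 0 higher with p under 0.05 before adjustment. Genes of granulocyte and monocyte progenitors, a gate next to LSK, had 15684 to 15685 in KO and 10581 to 12595 in WT over 5 genes, with 0 past the threshold in limma and 4 higher at an unadjusted p under 0.05. Ms4a3 was at 11.28 and 11.24 in KO and 9.89 and 10.38 in WT and Ctsg, a granule protease, at 11.60 and 11.63 in KO and 11.12 and 11.07 in WT. Mpo, the brightest of the 5, overlapped between the genotypes, at 12.04 and 12.02 in KO and 12.16 and 11.79 in WT. Limma called 0 of 7 measured LSK and stem cell genes, while 5 were lower with p under 0.05 before adjustment, and the sum was 2115 to 2235 in KO and 3120 to 4052 in WT. The transcription factor Hlf was at 5.54 and 5.41 in KO and 6.75 and 6.56 in WT and the receptor Flt3 at 7.76 and 7.52 in KO and 9.22 and 8.46 in WT. The part of these shifts in the differences of the interferon-stimulated genes was not tested.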

How the data were processed

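Total RNA of sorted LSK cells from 2 KO and 2 WT samples was hybridised to Affymetrix arrays, 1 per sample. The authors deposited 1 table of log2 values for 41345 probe sets, which ran from 0.375 to 12.8. RMA and Affymetrix Expression Console 1.2.1 are named, per the submitters' processing notes. Settings, filters and build: not given in the sources used here. Scanner files and detection calls were not used here, and the 4 arrays limit the precision.

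The platform annotation gave 1 gene symbol to 23521 probe sets and several to 1814. The genotypes were compared with limma 3.58.1 under R 4.3.3 on 1 probe set for each of 22180 genes, with an intensity trend, two-sided p-values and Benjamini-Hochberg adjustment at 0.05. No filter was applied. Differences are KO minus WT with moderated standard errors and 95% intervals. Promoters and chromosomes came from RefSeq (GRCm38.p6). Summed levels add the values of a list's genes after undoing the log2.

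The genes, lists and role groups were chosen with earlier results of these data known. Every listed gene was named, and the 35 measured ones were given with their values on all arrays. For Oas1a, Ifi27l2a, Parp10 and Dtx3l the values were those of shared probe sets, and for Ifi44 there were none. From each other list the rule was to name the genes past the threshold and up to 4 of smallest p. The text names fewer than 4 of the latter for some lists, and further genes that define a cell type or the pathway were chosen after their values were seen. T and NK, B cell and monocyte lists had medians of -0.03, -0.18 and 0.28, with 0 called in limma and 0, 0 and 1 higher and 1, 2 and 0 lower at an unadjusted p under 0.05. Of all genes, 10.5% were higher and 6.93% lower at that level. Alternatives were a replicate block, averaging the probe sets of a gene, a filter at the median gene, quantile normalization, median centring, other variance moderation and each array left out.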

Additional observations from a re-analysis of the deposited data

Results flagged for a closer look

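Probe sets shared by 2 genes were outside the tests, and 3 of those that read a listed gene had both KO samples above both WT samples. Of all genes with a probe set of their own, 25.1% had this order. The probe set of Ifi27l2a and Ifi27l2b was 0.99 higher in KO (log2), that of Oas1a and Oas1g 0.82 higher and that of Parp10 and Plec 0.66 higher. The probe set of Dtx3l and Parp9 overlapped between the genotypes. That of Gm7609 and Sp100 had both KO samples below both WT samples, with a difference of -0.074. These differences have no test, and which gene of each pair gave the signal cannot be told.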

How the results depend on the processing

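Of the 35 genes, 3 passed the adjusted threshold as reported. The count was 6 with a filter at the median gene, which added Ifit1, Isg20 and Rtp4, and 6 with median centring, which added Ifit1, Isg20 and Ube2l6. It was 14 in the looser call and 18 at an unadjusted p under 0.05, and with each array left out it ran from 0 to 16. Over all genes the count of 113 became 289 with the filter, 247 with centring and 0 to 3002 with each array left out. Quantile normalization gave 93 higher and 61 lower calls (60.4% higher), against 88 and 25 as reported (77.9% higher), so the lower calls grew. The count over the other interferon lists ran from 0 to 24 with each array left out. The median difference of 0.53 was 0.43 after quantile normalization, 0.47 with the filter, 0.58 with centring, 0.42 with the mean of probe sets and 0.40 to 0.60 with each array left out. With centring Trim30a was at 0.034 and Sp100 at 0.015, and after quantile normalization Lgals3bp was at -0.068, each of opposite sign to the reported value. With each array left out the sign turned for Ifit2 (-0.065 to 0.54), Trim30a (-0.10 to 0.072), Adar (-0.54 to 0.26), Trim25 (-0.22 to 0.052), Helz2 (-0.093 to 0.59), Parp14 (-0.13 to 0.39), Lgals3bp (-0.20 to 0.43), Sp100 (-0.072 to 0.0059), Samd9l (-0.21 to 0.11) and Ifit3 (-0.49 to 0.0048). The cause was not tested, beyond the fewer genes or arrays that the filter and the left-out arrays leave. The labels do not say that replicate numbers pair the arrays. Deviations of same-numbered arrays correlated at 0.11 across genes, and with the replicate block 2 of the 35 genes passed and Bst2 had a limma adjusted p of 0.054. Of the 9 calls in the other interferon lists 7 passed with it, and Irf7 had an adjusted p of 0.054 and Irgm2 of 0.058. Without the intensity trend Bst2 had 0.058.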

Other observations

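The 3 interferon-stimulated genes past the threshold had genomic spans of 1395 bases (Isg15), 3218 bases (Bst2) and 25012 bases (Usp18). The other 32 had a median of 22740 bases, which Usp18 exceeded. Over the 35 genes the difference between KO and WT had a rank correlation of -0.31 with span, beside -0.29 over 11035 genes at or above the median level (Spearman's rho across genes, which share the same 4 arrays and are not independent). Over all 21991 genes with a known span the rank correlation with span was -0.15. With the mean level of the gene the rank correlation was 0.23 over the 35 genes.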
